A study of Mus musculus with 2 samples.

Results

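Genes for licensing DNA replication origins and for building the replication fork were followed in mouse embryonic stem cells (mESCs) cultured with and without folate. The 46 genes were taken by symbol from a table of 28839 genes, and each was present there once. They encode the origin recognition complex (ORC), the loading factors CDC6 and CDT1 with the CDT1 inhibitor geminin, the MCM2-7 helicase and the factors that activate it, the replicative DNA polymerases, the sliding clamp and its loader, replication protein A (RPA), 2 enzymes of Okazaki fragment maturation, and 3 factors that tie chromatin assembly and histone mRNA to the fork. The rule used the known role of each gene product and no measured value, and the genes were proposed with earlier results of these data known.

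RNA was sequenced from the Sv129 mESC line in folate-deficient medium (FA0, folate at 0 mg/L) and in the same medium with folate added (FA4, 4 mg/L), with 1 library per condition. Both cultures were split from one thawed stock of the line and shared DMEM, fetal bovine serum and leukemia inhibitory factor. They are therefore 1 line and 1 split, and the length of the culture without folate was not given in the sources used here. With no replicate, the spread between cultures is unknown and no test was made.

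A replication origin is licensed in G1 phase, when ORC, CDC6 and CDT1 load the ring-shaped MCM2-7 complex onto DNA in an inactive form, and geminin blocks CDT1 once S phase has begun. In S phase the kinase CDC7-DBF4 and the proteins CDC45 and GINS turn the loaded ring into the moving helicase, RPA coats the exposed single strands, polymerase alpha-primase lays down primers, and polymerases delta and epsilon extend them on the sliding clamp PCNA. Many of these genes are targets of E2F factors, and mESCs, which have a short G1 phase, are known for high levels of them. Folate carries the one-carbon units that are used to make thymidylate and purines, the building blocks that the fork consumes.

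The FPKM of each library allowed the reads to be recovered, with a scaling total of 17704841 in FA0 and 18807174 in FA4, and 98.1% and 97.9% of the low values came out as whole reads. An FPKM is a level per length, and the length that fits these values is that of all annotated exons of a gene merged. This length can exceed that of the transcripts present, so levels of different genes are compared only roughly. Statements below on which gene is more abundant refer to FPKM. Differences are given as the log2 change, with 1 added to the FPKM of FA0 and of FA4 before the ratio FA0 over FA4 was formed. A gene counted as expressed when one of the libraries had 1 FPKM or more, which held for 14345 genes. Ratios of FPKM are given with a 95% Clopper-Pearson interval from the recovered reads. This interval covers counting error only and not the spread between cultures. The label of the cells was checked with 10 markers of pluripotent cells, which had 56.2 to 480 FPKM in FA0 and 42.3 to 824 FPKM in FA4. Of them, 9 were lower in FA0, with a median change of -0.24 over the 10. All but Fgf4 had a mean of 100 FPKM or more over both libraries. Of all expressed genes at that level, 75.1% had a change below 0, with a median of -0.20. The part of the markers in the results below was not tested. Of 8 fibroblast markers, only Thy1 and Pdgfrb reached 1 FPKM, and they summed to 6.38 FPKM in FA0 and 6.23 FPKM in FA4. Col1a1 was at 0.301 FPKM in FA0 and 0.203 FPKM in FA4, and Col1a2 at 0.027 FPKM in FA0 and 0.051 FPKM in FA4. Pdgfra was at 0.327 FPKM in FA0 and 0.843 FPKM in FA4. Col3a1, Postn and Lum were listed at 0 in FA4 and at 0.00575, 0.0584 and 0.0231 FPKM in FA0. Of 7 primitive endoderm markers, 3 reached 1 FPKM, and they summed to 2.94 FPKM in FA0 and 5.56 FPKM in FA4. Of 8 mesoderm and neural markers, 3 reached 1 FPKM. Eomes had 3.21 FPKM in FA0 and 1.95 FPKM in FA4, a ratio of 1.65 (1.34 to 2.04). Sox1 (1.15 FPKM in FA0, 1.12 in FA4) and Tubb3 (40.3 in FA0, 43.1 in FA4) had intervals that include equal levels.

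E2F sites in the promoters are shown first, because of 3 motifs searched they stood furthest above their share in expressed genes. RefSeq promoters (GRCm38.p6, the build behind mm10) from 250 bases before to 50 bases after each start were matched by symbol for 38 of the 46 genes. The 8 without an entry were Prim2, Rfc2, Mcm4, Gins1, Gmnn, Pole, Gins2 and Gins4. The letters TTTCCCGC, TTTGGCGC, TTTCGCGC and TTTGCCGC were searched on both strands, and matches that overlap each other within one promoter were each kept. At least 1 match was present in 15 of the 38 genes (39.5%), beside 4.90% of 9739 expressed genes with a promoter entry and 2.26% of all 32851 promoters. The following 30-base windows are read 5′ to 3′ on the strand of the gene, and capitals mark the matched letters. The first 3 genes were lower in FA0 and the last 3 were higher in FA0, each with a counting interval that leaves out equal levels.
Orc1, chr4:108579416-108579445, plus strand: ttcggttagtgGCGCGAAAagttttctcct
Mcm5, chr8:75109345-75109374, plus strand: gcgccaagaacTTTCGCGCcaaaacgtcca
Pola1, chrX:93632275-93632304, minus strand: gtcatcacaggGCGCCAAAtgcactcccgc
Cdt1, chr8:122568035-122568064, plus strand: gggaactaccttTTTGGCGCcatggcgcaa
Gins3, chr8:95633507-95633536, plus strand: gcgagtgcggcGCGGGAAAgcgagtttgaa
Pold3, chr7:100121467-100121496, minus strand: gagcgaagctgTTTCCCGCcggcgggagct
Counted from the RefSeq start of the promoter table, which can differ from the GENCODE start given for a gene below, the match began 27 bases before the start in Orc1, 153 before it in Mcm5, 138 before it in Pola1 and 41 before it in Gins3. In Cdt1 and Pold3 it lay within the transcript, 32 and 17 bases past the RefSeq start base. In Mcm5 a second match, on the other strand, overlaps the one shown. The same letters were thus found in genes that were lower and in genes that were higher in FA0.

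No gene of the 46 was 2-fold higher or lower in folate-deficient mESCs. All 46 passed 1 FPKM in both libraries, and their changes ran between -0.43 (Pold2) and 0.38 (Cdt1) with a median of -0.04. The median over all expressed genes was 0.05. The 2-fold limit was passed upward in FA0 by 2.99% of all expressed genes and downward by 1.32%. In bulk RNA, fewer cells in S phase and less of these mRNAs per cell cannot be told apart.

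Of the 46 genes, 18 had a change above 0 and 28 below 0 (60.9%), beside 44.3% of all expressed genes below 0, 58.5% of those at 20 to 100 FPKM and 75.1% of those at 100 FPKM or more. The counting interval lay above equal levels in 12 genes (26.1%), beside 34.4% of 14333 expressed genes with recovered reads. It lay below equal levels in 18 genes (39.1%), beside 25.9% of expressed genes. The other 16 intervals included equal levels. Summed over the 46 genes, 144804 reads were recovered in FA0 and 159475 in FA4, which gave a ratio per library total of 0.965 (0.958 to 0.971). When both libraries were rescaled to TPM, the median of the 46 genes was 0.04, and the intervals lay above equal levels in 17 genes and below in 11. The shares over all expressed genes were not recomputed in TPM, so these counts have no background beside them. The median of all expressed genes in TPM was 0.15, with the minimum of 1 applied to TPM, which lets in genes below 1 FPKM. The excess of lower over higher genes thus depended on the scaling between the libraries. The median of the 46 genes lay below that of all expressed genes under both scalings.

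**Figure D1:**
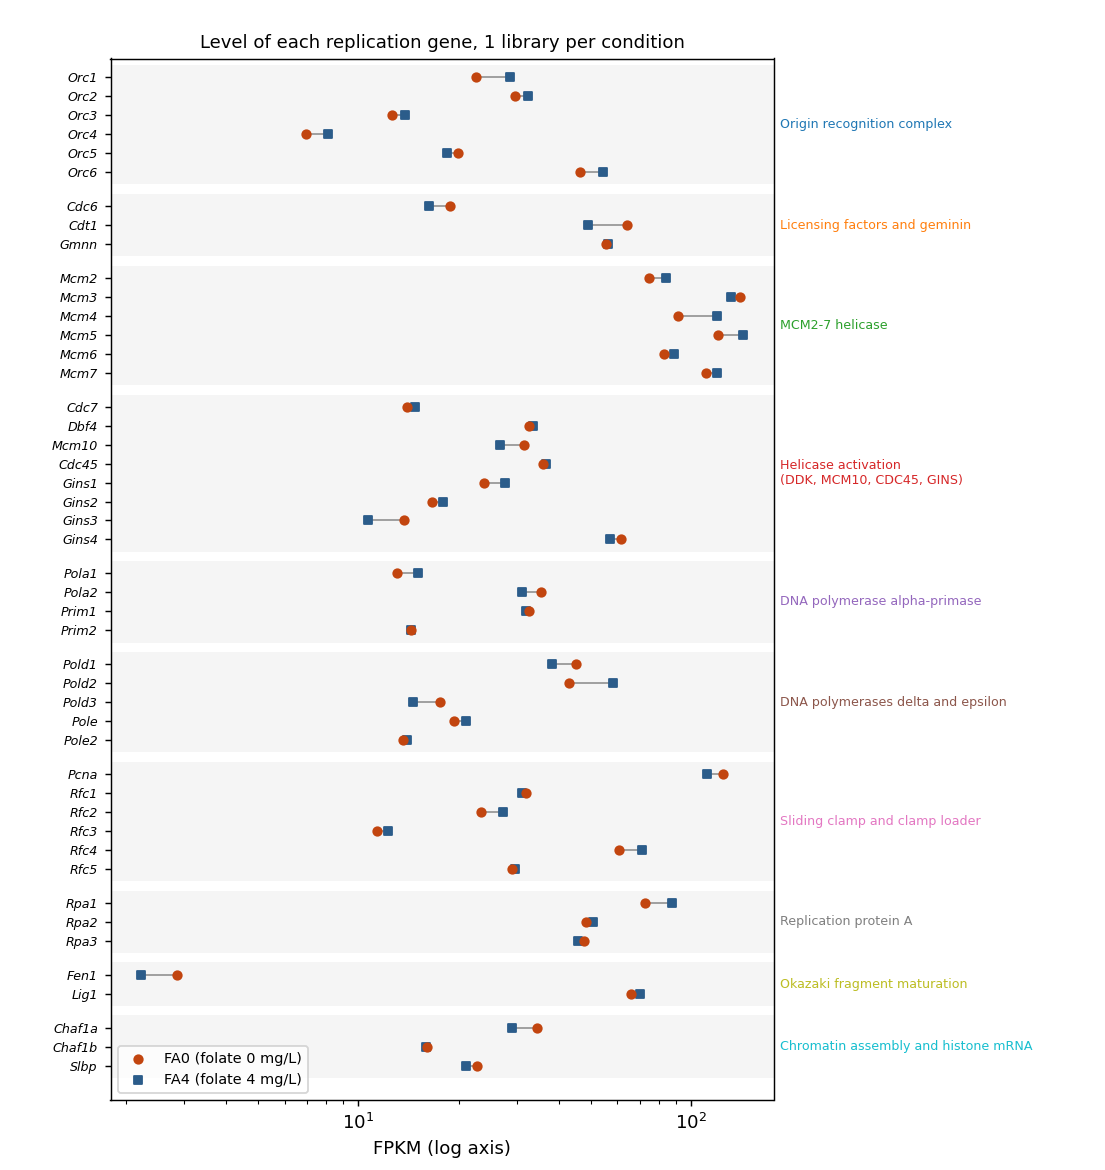
FPKM of each of the 46 genes (horizontal log axis) in FA0 (circles) and FA4 (squares), 1 library each, with the genes grouped by the role of the product. Levels ran between 2.85 and 140 FPKM in FA0 and between 2.22 and 143 FPKM in FA4, and the shift between the libraries was small beside the distances between genes.

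The share below equal levels moved with the level of expression over the whole table. Over all expressed genes, the median change was 0.12 under 5 FPKM (mean of both libraries), 0.05 between 5 and 20, -0.06 between 20 and 100, and -0.20 at 100 or more. In the band between 5 and 20 FPKM, which held 13 of the 46 genes, 4 intervals lay above equal levels (30.8%) beside 38.1% of all genes in that band, and 3 lay below (23.1%) beside 24.4%. In the band between 20 and 100 FPKM, which held 27 of the 46 genes, 6 lay above (22.2%) beside 31.1%, and 12 lay below (44.4%) beside 45.6%. The shares below equal levels were close to those of other genes of the same level in both bands. The 5 genes at 100 FPKM or more (Mcm3, Mcm4, Mcm5, Mcm7 and Pcna) had a median change of -0.11, against -0.20 for all 478 genes there. The median of the 46 genes, taken relative to each band's own median, was -0.02.

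**Figure D2:**
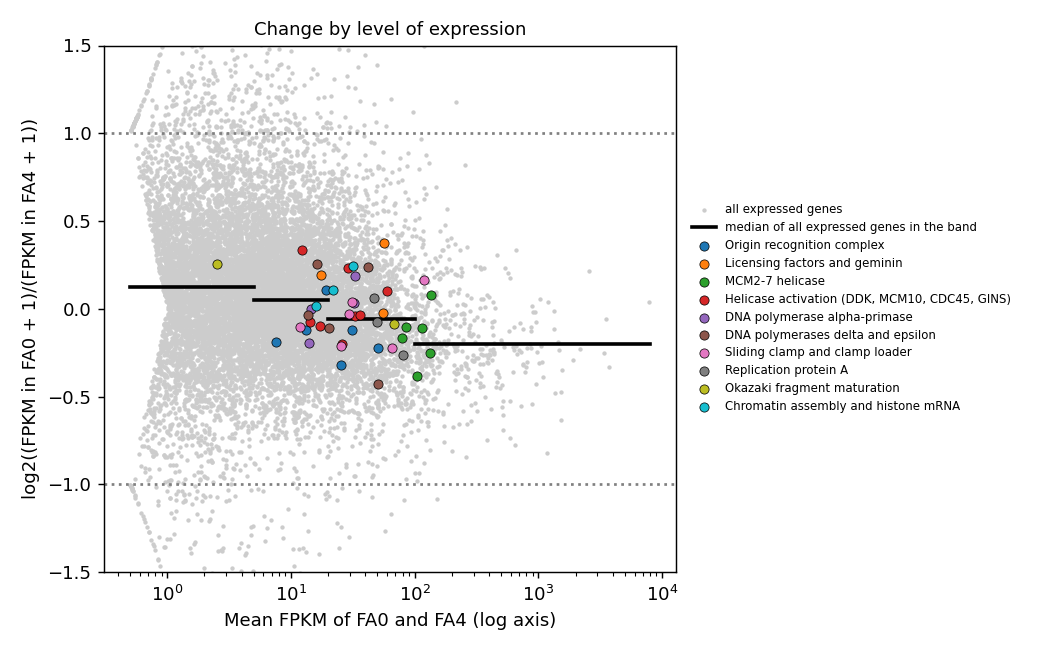
Change in log2, FA0 over FA4 (vertical axis), against the mean FPKM of FA0 and FA4 (horizontal log axis) for all expressed genes (grey) and the 46 replication genes (coloured by role), with genes outside the vertical range not drawn. Black bars give the median of all expressed genes in each band of level and fall to -0.20 at 100 FPKM or more, and all 46 genes lie within the dotted lines at 2-fold.

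The 6 ORC genes, whose products mark origins, were lower in FA0 for 5 of 6 (83.3%). A change below 0 was found in 44.3% of all expressed genes, 42.9% of those at 5 to 20 FPKM and 58.5% of those at 20 to 100. Orc1, the largest ORC subunit and an ATPase (ENSMUSG00000028587, chromosome 4 from 108579423 to 108614833 in GRCm38, plus strand), had 22.6 FPKM in FA0 and 28.5 FPKM in FA4, a ratio of 0.793 (0.739 to 0.850). It carries the E2F letters shown above. Orc6 had 46.3 FPKM in FA0 and 54.3 FPKM in FA4, and it was the most abundant ORC mRNA in both libraries. Orc4 had 6.96 FPKM in FA0 and 8.08 FPKM in FA4, and it was the least abundant. The ratios of Orc6 and Orc4 were 0.853 and 0.862, and Orc2 (29.6 FPKM in FA0, 32.3 in FA4) and Orc3 (12.6 in FA0, 13.8 in FA4) both came to 0.916. Orc5 was the exception, with 19.96 FPKM in FA0 and 18.5 FPKM in FA4 and a ratio of 1.08 (1.02 to 1.15). Summed over the complex, the ratio of reads was 0.907 (0.883 to 0.932), and the median change stayed below 0 after rescaling to TPM (-0.09). The changes of Orc2 and Orc3 both came to -0.04 in TPM. The order of the 6 genes by FPKM was Orc6, Orc2, Orc1, Orc5, Orc3 and Orc4 in both libraries.

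The loading factors lay on the other side. Cdt1, which brings the MCM ring to ORC (ENSMUSG00000006585, chromosome 8 from 122568015 to 122573554, plus strand), had 64.0 FPKM in FA0 and 49.1 FPKM in FA4. Its ratio of 1.303 (1.24 to 1.37) was the highest of the genes whose interval left out equal levels. Cdc6, the ATPase that works with ORC in loading, had 18.8 FPKM in FA0 and 16.3 FPKM in FA4, a ratio of 1.15 (1.08 to 1.23). Gmnn, which encodes geminin, the protein that binds and blocks CDT1, had 55.3 FPKM in FA0 and 56.2 FPKM in FA4, a ratio of 0.985 (0.916 to 1.06) that includes equal levels. The FPKM of Cdt1 was thus 1.16 times that of Gmnn in FA0 and 0.874 times that of Gmnn in FA4. The quotient of these within-library ratios was 1.32 (1.21 to 1.44), and it does not depend on how the libraries are scaled to each other. CDT1 and geminin are known to be controlled largely by destruction of the protein, and protein was not measured here.

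Of the 6 MCM2-7 genes, whose products form the 6 subunits of one ring, 5 were lower in FA0 (83.3%). Of all expressed genes, 58.5% at 20 to 100 FPKM and 75.1% at 100 FPKM or more had a change below 0. Mcm4 (ENSMUSG00000022673, chromosome 16 from 15623897 to 15637400, minus strand) had 91.1 FPKM in FA0 and 119 FPKM in FA4, a ratio of 0.763 (0.738 to 0.790). Mcm5 had 120.5 FPKM in FA0 and 143 FPKM in FA4, a ratio of 0.840 (0.816 to 0.864). The differences of Mcm4 and Mcm5 were the largest of the ring, and those of the next 3 genes were smaller. Mcm2 had 74.7 FPKM in FA0 and 84.0 FPKM in FA4, a ratio of 0.889. Mcm6 had 82.7 FPKM in FA0 and 89.0 FPKM in FA4, and Mcm7 had 111 FPKM in FA0 and 119 FPKM in FA4, with ratios of 0.929 and 0.927. Mcm3 was the only one that was higher in FA0, at 140 FPKM against 132 FPKM in FA4, a ratio of 1.06 (1.03 to 1.09).

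The ring subunits were among the most abundant of the 46 mRNAs and summed to 619 FPKM in FA0 and 687 FPKM in FA4, with a ratio of reads of 0.902 (0.891 to 0.913). The highest of the 6 stood 1.87 times above the lowest in FA0 and 1.71 times in FA4. That spread was narrower than in ORC, where it was 6.65 in FA0 and 6.72 in FA4. In FA0 the highest was Mcm3, at 1.53 times the FPKM of Mcm4, and in FA4 it was Mcm5, with Mcm3 at 1.11 times Mcm4. The quotient of the Mcm3 to Mcm4 ratios was 1.39 (1.32 to 1.45). The median change of the 6 genes was -0.14, or -0.06 after rescaling to TPM, and genes of their level were lower in FA0 as a rule. Relative to its band of level, Mcm7 came out at 0.09, above 0.

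**Figure D3:**
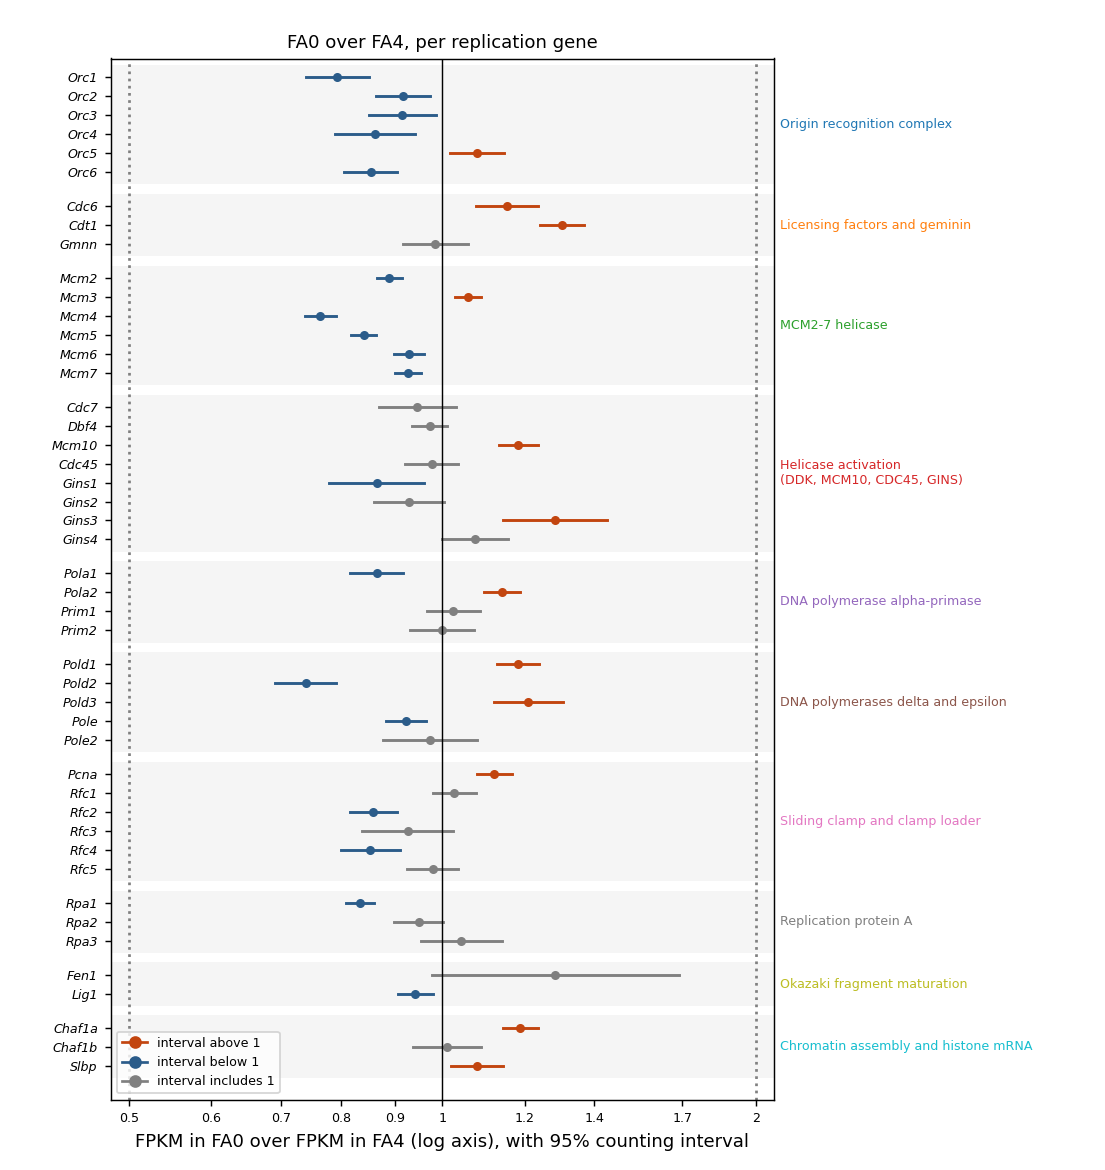
Ratio of FPKM, FA0 over FA4 (horizontal log axis), with its 95% counting interval for each of the 46 genes, coloured by whether the interval lies above, below or across 1. The dotted lines at 0.5 and 2 mark 2-fold, and ORC and MCM2-7 each have 5 of 6 intervals below 1, beside 25.9% of all expressed genes, 45.6% of those at 20 to 100 FPKM and 69.9% of those at 100 FPKM or more, while Cdt1 and Cdc6 lie above 1.

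The 8 genes of helicase activation had no common direction. Cdc7, the catalytic subunit of the kinase that phosphorylates the MCM ring, had 14.0 FPKM in FA0 and 14.8 FPKM in FA4, and its activator Dbf4 had 32.6 FPKM in FA0 and 33.5 FPKM in FA4. Cdc45, a core part of the moving helicase, had 35.9 FPKM in FA0 and 36.7 FPKM in FA4. All 3 ratios (0.946, 0.973 and 0.977) had intervals that include equal levels. Mcm10, needed to start unwinding, had 31.5 FPKM in FA0 and 26.6 FPKM in FA4, a ratio of 1.18 (1.13 to 1.24).

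GINS is a complex of 4 different subunits that joins CDC45 on the MCM ring, and its genes differed in direction. Gins3 (ENSMUSG00000031669, chromosome 8 from 95633453 to 95645060, plus strand) had 13.7 FPKM in FA0 and 10.7 FPKM in FA4, a ratio of 1.28 (1.14 to 1.44) from 657 and 544 reads. Gins1 had 23.8 FPKM in FA0 and 27.5 FPKM in FA4, a ratio of 0.865 (0.778 to 0.961) from 639 and 785 reads. These were the GINS genes with the fewest reads. Gins4 was the most abundant, with 61.5 FPKM in FA0 and 57.2 FPKM in FA4, and Gins2 had 16.6 FPKM in FA0 and 17.9 FPKM in FA4, both with intervals that include equal levels. Within a library Gins3 reached 0.575 times the FPKM of Gins1 in FA0 and 0.388 times in FA4, a quotient of 1.48 (1.27 to 1.74). Of the exon bases of Gins2, 67.3% are shared with Gse1 on the opposite strand, which had 5.37 FPKM in FA0 and 3.04 FPKM in FA4. Whether the counting used strand was not given in the sources used here, so reads of such pairs cannot be told apart.

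The 4 genes of DNA polymerase alpha-primase, which makes the RNA-DNA primers, split within the complex. Pola1, the catalytic polymerase subunit, had 13.1 FPKM in FA0 and 15.1 FPKM in FA4, a ratio of 0.865 (0.815 to 0.917). Pola2, its accessory subunit, had 35.4 FPKM in FA0 and 31.0 FPKM in FA4, a ratio of 1.14 (1.10 to 1.19). The pair that makes the RNA part of the primer lay between them. Prim1, the catalytic primase subunit, had 32.7 FPKM in FA0 and 31.9 FPKM in FA4, and Prim2, the large primase subunit, had 14.4 FPKM in both FA0 and FA4, with both intervals including equal levels. Pola2 stood at 2.71 times the FPKM of Pola1 in FA0 and 2.05 times in FA4, a quotient of 1.32 (1.23 to 1.42).

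The 3 genes of the 46 for subunits of DNA polymerase delta, the polymerase of the lagging strand, differed in direction. Pold2, a small accessory subunit (ENSMUSG00000020471, chromosome 11 from 5872180 to 5878292, minus strand), had 42.9 FPKM in FA0 and 58.0 FPKM in FA4. Its ratio of 0.739 (0.691 to 0.791), from 1440 reads in FA0 and 2069 in FA4, was the lowest of the 46. Pold1, the catalytic subunit, had 45.2 FPKM in FA0 and 38.2 FPKM in FA4, a ratio of 1.18 (1.13 to 1.24). Pold3, a subunit that binds PCNA (ENSMUSG00000030726, chromosome 7 from 100082111 to 100121565, minus strand), had 17.6 FPKM in FA0 and 14.6 FPKM in FA4, a ratio of 1.21 (1.12 to 1.305). Pold2 was therefore second to Pold1 in FA0 and first of the 3 in FA4, with 40.6% of their summed FPKM in FA0 and 52.4% in FA4. Pold3 reached 0.411 times the FPKM of Pold2 in FA0 and 0.252 times in FA4, a quotient of 1.63 (1.48 to 1.81). None of the 3 genes shares exon bases with another gene. In polymerase epsilon, which copies the leading strand, the catalytic subunit Pole had 19.4 FPKM in FA0 and 20.99 FPKM in FA4, a ratio of 0.923 (0.883 to 0.964). Its partner Pole2 had 13.6 FPKM in FA0 and 14.0 FPKM in FA4, with an interval that includes equal levels. Outside the 46, Pole3 had 29.8 FPKM in FA0 and 24.3 FPKM in FA4, a ratio of 1.23 (1.12 to 1.34). Pole4 had 39.8 FPKM in FA0 and 44.1 FPKM in FA4, a ratio of 0.902 (0.846 to 0.962).

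Pcna, the ring that holds the polymerases on DNA, had 125 FPKM in FA0 and 111 FPKM in FA4, a ratio of 1.12 (1.08 to 1.17). Pcna has a close copy in the table, Pcna-ps2, with 73.4 FPKM in FA0 and 62.7 FPKM in FA4. The treatment of reads that match both was not given in the sources used here, and the sum of both genes had a ratio of 1.13 (1.09 to 1.17). Of the 5 genes of the clamp loader RFC, which opens PCNA, 4 had a change below 0 (80%, beside 44.3% of all expressed genes). The counting interval lay below equal levels in 2 (40%, beside 25.9% of expressed genes), Rfc4 and Rfc2. Rfc4 had 60.5 FPKM in FA0 and 71.0 FPKM in FA4 (ratio 0.853, 0.799 to 0.910), and Rfc2 had 23.4 FPKM in FA0 and 27.2 FPKM in FA4 (ratio 0.858, 0.815 to 0.904). Both are small subunits of the loader. The large subunit Rfc1, at 31.9 FPKM in FA0 and 31.0 FPKM in FA4, and the small subunits Rfc3 (11.4 in FA0, 12.3 in FA4) and Rfc5 (28.9 in FA0, 29.5 in FA4) had intervals that include equal levels. Pcna reached 2.06 times the FPKM of Rfc4 in FA0 and 1.57 times in FA4, a quotient of 1.32 (1.22 to 1.42).

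RPA has 3 subunits, and its largest, Rpa1, which does most of the DNA binding, had 72.7 FPKM in FA0 and 87.3 FPKM in FA4. Its ratio was 0.833 (0.807 to 0.859). Rpa2 had 48.2 FPKM in FA0 and 50.8 FPKM in FA4, and Rpa3 had 47.7 FPKM in FA0 and 45.7 FPKM in FA4, both with intervals that include equal levels. The level of Rpa3 relative to Rpa1 was 0.656 in FA0 and 0.524 in FA4, a quotient of 1.25 (1.14 to 1.38).

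Lig1, the ligase that seals Okazaki fragments, had 66.0 FPKM in FA0 and 70.1 FPKM in FA4, a ratio of 0.942 (0.907 to 0.979). Fen1, the nuclease that trims their flaps, had 2.85 FPKM in FA0 and 2.22 FPKM in FA4 and was the least abundant of the 46 in both libraries. Its ratio of 1.28 (0.978 to 1.69) rests on 122 reads in FA0 and 101 in FA4 and includes equal levels. Of the exon bases of Fen1, 78.8% are shared with Gm10143 on the opposite strand (0.508 FPKM in FA0, 0.686 FPKM in FA4). Whether the low level of Fen1 comes from the way reads over shared bases were assigned was not tested.

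Chaf1a and Chaf1b encode subunits of chromatin assembly factor 1, which places new H3-H4 behind the fork. Chaf1a had 34.4 FPKM in FA0 and 28.9 FPKM in FA4, a ratio of 1.19 (1.14 to 1.24), and 52.5% of its exon bases are shared with Ubxn6 on the opposite strand (10.04 FPKM in FA0, 12.7 FPKM in FA4). Chaf1b had 16.1 FPKM in FA0 and 15.9 FPKM in FA4, with an interval that includes equal levels. Slbp, whose product binds the stem-loop at the end of histone mRNAs, had 22.7 FPKM in FA0 and 21.04 FPKM in FA4, a ratio of 1.08 (1.02 to 1.14). Replication-dependent histone mRNAs end in that stem-loop and carry no poly(A) tail, and 25 of 61 such genes reached 1 FPKM in at least 1 library. Their median change was -0.72, with 22 below 0 (88.0%, beside 44.3% of all expressed genes). Of the 25, 11 were at least 2-fold lower in FA0, beside 1.32% of all, though 13 of the 25 counting intervals included equal levels. They summed to 757 reads in FA0 and 1202 in FA4. A gene could pass the minimum through 1 library alone, and the lowest level among the 25 was 0 FPKM in FA0 and 0.946 FPKM in FA4. The median, the share below 0 and the count at 2-fold are therefore in part set by that filter and are only a description.

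**Figure D4:**
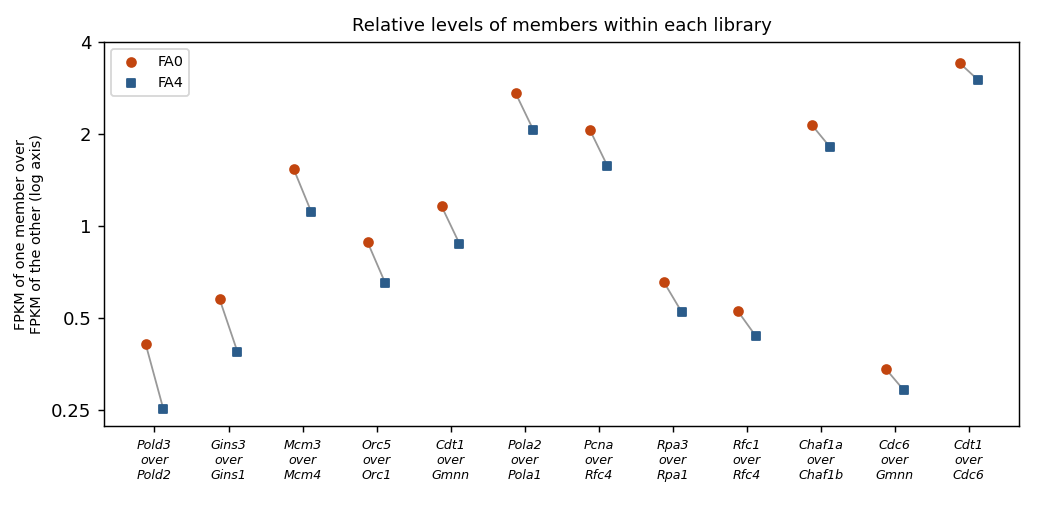
FPKM of one gene over FPKM of another within the same library (vertical log axis), in FA0 (circles) and FA4 (squares), for 12 pairs of genes of the same role. Every pair has the higher ratio in FA0 because the gene with the higher change was put on top, and Pold3 over Pold2, for example, stands at 0.411 in FA0 and 0.252 in FA4.

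The pairs compared above were the genes with the highest and the lowest change of each role or complex, apart from Cdc6 over Gmnn and Cdt1 over Cdc6. Cdt1 over Gmnn was also listed by role, but it too is the highest over the lowest change of its role. The pairs were thus chosen by their values or coincide with such a choice. The quotients are a description, and neither their order nor an interval that leaves out 1 is a finding. The quotients ran between 1.13 (Cdt1 over Cdc6, 1.04 to 1.23) and 1.63 (Pold3 over Pold2), with Fen1 over Lig1 at 1.36 (1.03 to 1.80), and their intervals do not cover differences between cultures. By role, the median change was highest for CDC6, CDT1 and geminin (0.19) and for the chromatin group (0.11), and lowest for ORC (-0.16) and MCM2-7 (-0.14). The medians of helicase activation (-0.04), polymerases delta and epsilon (-0.04), the clamp and its loader (-0.07) and RPA (-0.07) lay below 0, and after rescaling to TPM they lay above it, at 0.04, 0.04, 0.01 and 0.01. Polymerase alpha-primase had a median of 0.02.

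The genes without shared exon bases did not show more lower than higher genes. Of the 46 genes, 16 share exon bases with another gene, and in 4 of these (Fen1, Gins2, Chaf1a and Orc2) the shared part is over 25% of the exon bases. Of these 4, Fen1 and Chaf1a had a change above 0, and Gins2 and Orc2 below 0. Any shared base counted, down to 0.699% of the exon bases in Pole, and the 16 include Orc1, Orc2, Orc4, Orc5 and Orc6. Whether the overlap bears on the direction was not tested. In the 30 genes that share none, the median change was 0.01, with 15 genes above and 15 below 0, against -0.04, 18 and 28 over all 46. Their intervals lay above equal levels in 10 (33.3%) and below in 8 (26.7%), close to the 34.4% and 25.9% of all expressed genes, and their summed reads had a ratio of 0.983 (0.974 to 0.992).

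Genes with the E2F letters differed in both directions. The 15 genes with a match had a median change of -0.09, with 6 above and 9 below 0, and the 23 with a promoter but no match had a median of -0.03, with 11 above and 12 below. The counting interval lay above equal levels in 6 and below in 7 of the genes with a match, and in 6 and 7 of those without. Over expressed genes, it lay above in 174 and below in 144 of 477 with a match, and above in 3418 and below in 2532 of 9262 without. Over expressed genes the medians were 0.02 for 477 with a match and 0.05 for 9262 without. The CCAAT box (CCAAT, both strands), a site of the factor NF-Y, was present in 60.5% of the 38 genes and in 43.7% of expressed genes. The letters of the cell cycle homology region (TTTGAA, both strands), known from promoters of mitotic genes, were present in 18.4% of the 38 and in 14.1% of expressed genes. A match of letters is a description of the sequence and was not read as a bound site.

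Further genes of the pathway were taken as lists by role. Of 27 other origin and fork factors, 11 were above and 16 below 0 (59.3%, beside 44.3% of all expressed genes), with a median of -0.04. None was 2-fold higher or lower. The highest were Chtf18 (24.6 FPKM in FA0, 17.0 in FA4), part of an alternative clamp loader, Recql4 (14.5 in FA0, 10.8 in FA4), a helicase of origin firing, and Nasp (97.5 in FA0, 77.9 in FA4), a histone chaperone. The lowest were Pclaf (13.0 in FA0, 18.5 in FA4), a PCNA-binding protein, the topoisomerase gene Top1 (11.1 in FA0, 14.5 in FA4), and Asf1a (13.7 in FA0, 17.7 in FA4), a histone chaperone. Of 13 replication checkpoint genes 12 were expressed, with 3 above and 9 below 0 (75.0%) and a median of -0.07. The medians of both lists were not recomputed in TPM, which turned the median of the 46 genes above 0. Timeless (28.2 FPKM in FA0, 23.9 in FA4) had the highest change and its partner Tipin (66.5 in FA0, 79.2 in FA4) the lowest, though the 2 proteins form one complex.

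Of 11 genes listed under deoxynucleotide supply, 9 were above 0 and 18.2% below 0, beside 44.3% of all expressed genes, with a median of 0.26. The list also holds Samhd1, whose product breaks deoxynucleotides down (9.24 FPKM in FA0, 7.53 in FA4). Its change of 0.26 is that median, and its interval is among those above equal levels. The highest were the salvage kinases Dck (16.01 FPKM in FA0, 11.5 in FA4) and Tk1 (16.2 in FA0, 11.9 in FA4) and the ribonucleotide reductase subunit Rrm1 (14.7 in FA0, 11.6 in FA4). Tyms, the thymidylate synthase that takes its methyl group from folate, was the lowest, with 17.4 FPKM in FA0 and 23.9 FPKM in FA4, a ratio of 0.728 (0.686 to 0.772). The only other gene of the list below 0 was Dtymk, the next kinase on the path to dTTP, with 98.1 FPKM in FA0 and 115 FPKM in FA4. The interval lay above equal levels in 6 of the 11 genes (54.5%, beside 34.4% of expressed genes) and below in 2, and no gene was 2-fold different.

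Among 13 E2F factors and pocket proteins, 10 were above 0 and 23.1% below 0, with a median of 0.10. E2f3, one of the activating factors, had 16.4 FPKM in FA0 and 9.55 FPKM in FA4, a ratio of 1.72 (1.59 to 1.86), and the pocket protein gene Rbl2, whose product holds E2F targets off, had 2.85 FPKM in FA0 and 1.79 FPKM in FA4, a ratio of 1.59 (1.36 to 1.88). Rb1, the best known pocket protein gene, had the lowest change of the list, with 5.39 FPKM in FA0 and 6.04 FPKM in FA4, a ratio of 0.893 (0.798 to 0.999). Among 25 mitotic genes, 20 were above 0 and 5 below 0, with a median of 0.18 and 15 intervals above equal levels (60.0%, beside the same 34.4%). Incenp (66.5 FPKM in FA0, 44.7 in FA4), of the chromosomal passenger complex, Cenpf (16.1 in FA0, 10.7 in FA4), a kinetochore protein, and cyclin B2 (Ccnb2, 133 in FA0, 101 in FA4) were the highest. Bub1, a spindle checkpoint kinase, was the lowest, with 42.3 FPKM in FA0 and 46.4 FPKM in FA4. The medians of these 3 lists lay above those of the 46 replication genes and of all expressed genes, and with 1 library per condition the difference between lists was not tested.

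**Figure D5:**
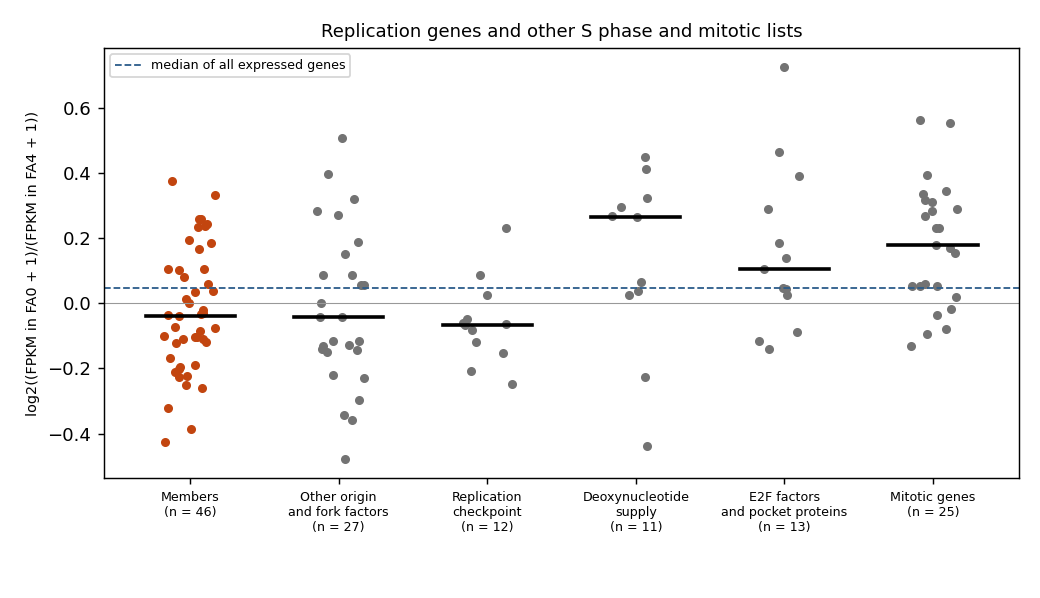
Change in log2, FA0 over FA4 (vertical axis), of each gene in the 46 replication genes (members, left) and in 5 other lists, with black bars at the list medians and a dashed line at the median of all expressed genes (0.05). The medians are -0.04 for the 46 genes, -0.04 and -0.07 for the other fork and checkpoint lists, and 0.26, 0.10 and 0.18 for deoxynucleotide supply, E2F factors and mitotic genes, and every list spans 0.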

How the data were processed

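RNA-seq of Sv129 mESCs in FA0 and FA4 was used, with 1 library per condition. The authors mapped the reads to mm10, and the values they deposited are FPKM per Ensembl gene, scaled within each library. DESeq 1.28.0, StringTie 1.3.3b and HISAT2 2.1.0 are named in the submitters' processing notes. The handling of strand and of multi-mapped reads was not given in the sources used here.

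Reads were recovered as FPKM times the merged exon length in GENCODE M21, on the same build, for all but 39 genes. Of the values up to 20 reads, 98.1% of 11449 in FA0 and 97.9% of 10774 in FA4 were within 0.05 of a whole number. The recovered reads summed to 18367808 in FA0 and 19534483 in FA4. The change of a gene used a pseudocount of 1, which understates it for low genes, and a gene was kept when one library or both had at least 1 FPKM. The limit of 2-fold is that of the study's methods, without its p-value. Clopper-Pearson intervals of the ratio, and exact conditional intervals for the quotient of 2 ratios, are at 95%. With 1 library per condition no test or paired fit was possible.

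The 46 genes and the lists were chosen with earlier results of these data known. All 46 could be named, and of each other list the up to 3 highest and lowest changes, or the whole list where it has 10 or fewer genes. Samhd1, Pold4, Pole3 and Pole4 were named outside that rule. RefSeq promoters were matched by symbol. In 41 of the 46 genes the recovered reads were whole in both libraries, and Cdc45, Pola2, Chaf1a, Rfc4 and Chaf1b were not.

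The alternatives were pseudocounts of 0.1 and 0.5, a minimum of 5 FPKM or none, TPM, and FA0 divided by the median ratio over 7744 genes. Chosen after seeing the data were the ratio without a pseudocount and the change relative to the median of the level band. The scripts were tested on simulated data. Python 3.11.15 with pandas 2.3.3, numpy 2.4.6, scipy 1.17.1 and matplotlib 3.10.9 was used.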

Additional observations from a re-analysis of the deposited data

How the results depend on the processing

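No gene of the 46 was 2-fold higher or lower under any alternative run. The median change of the 46 genes, -0.04, was 0.0406 in TPM and -0.0190 relative to the median of the level band. In TPM the count of genes with an interval below equal levels was 11 in place of 18, and the share over all expressed genes was not recomputed. TPM raises every ratio of FA0 over FA4 because the FPKM total of FA4 was 1.06 times that of FA0, a shift of 0.08 on the log2 scale before the pseudocount, which also weighs less in TPM. The share of all expressed genes at least 2-fold higher or lower, 4.32%, was 9.48% with a pseudocount of 0.1, 6.54% with 0.5, 2.15% with no minimum, 11.3% in TPM and 9.72% without a pseudocount. In TPM the minimum of 1 was applied to TPM, which lets in genes below 1 FPKM. The share in TPM is therefore over a larger set of genes than the 4.32%. The median of the helicase activation genes turned to 0.0440 in TPM and 0.0248 relative to the band, that of RPA to 0.00556 in TPM, that of Fen1 and Lig1 to -0.0850 at a minimum FPKM of 5, which leaves Lig1 alone, and Mcm7 to 0.0928 relative to the band. Of the single changes, 19 of 46 moved by more than their counting interval in TPM and 12 relative to the band, and 27 and 34 did not. No paired analysis was possible because each condition has 1 library, and for the same reason no library could be left out. Depth limits Fen1 most, with 122 reads in FA0 and 101 in FA4.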
